A study of Mus musculus with 11 samples.

Results

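Gene-end regions open in every library were examined: stretches of accessible chromatin within 1 kb of the start or the end of a protein-coding gene that had a peak in all 11 libraries of an ATAC-seq series. In ATAC-seq a transposase cuts and tags DNA that is not covered by nucleosomes, so pile-ups of reads, called as peaks, mark open chromatin. The 72935 peaks with the highest −log10 p were taken from each library's deposited list (the length of the shortest list), those on chromosomes 1 to 19 were kept, and overlapping intervals were merged. This gave 82662 merged regions. Of them 28339 had a peak in every library, and 10439 of these lay near a gene end, which is 12.6% of the merged regions. Presence of a peak and its rank chose these regions, so their high levels are a description and are not tested.

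The cells came from lungs of mouse fetuses at stage E17.5 and were captured with microbeads against EpCAM, an epithelial surface protein, 50000 cells per library. The control group had 6 libraries, labelled only Control, whose genotype beyond that word the labels do not state. The knockout group had 5 libraries of Prdm3/16KO, in which Prdm16 flox/flox and Prdm3 flox/flox alleles were deleted with ShhCre, a Cre driven from the Shh locus and active in the epithelium of the developing lung. Prdm3 is called Mecom in the gene table. The breeding described in the labels has Prdm3 fl/fl on both sides, with Cre passed on by the male. Whether each library came from a separate fetus is not given, so the p-values measure only the spread between these libraries. Because each library was made from many cells, a change in the share of cells of 1 type and a change of accessibility in each cell cannot be told apart.

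The start of a gene is where RNA polymerase is loaded, and its promoter is usually kept free of nucleosomes in cells that can use the gene. Promoters of widely used genes are often rich in CpG dinucleotides and are open in most cell types, while enhancers farther away differ more between cell types. The proteins of Prdm16 and Prdm3 bind DNA through zinc fingers and act on histones and on transcription. The title of the series names NKX2-1, the homeobox factor that specifies the lung epithelium.

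The promoters below show what such regions look like, and were chosen because the results turn on them. Each is the 250 bases before a gene's start, 5′ to 3′ on the strand of the gene, from RefSeq on GRCm38.p6 (mm10). Capitals mark a match to 1 of 13 short motifs, searched on both strands. The letters sought were CCAAT for the factor NF-Y, GGGCGG for factors of the SP and KLF families, called a GC box, CCGGAAG for ETS factors, and TGACGT for the core of a cyclic AMP response element (CRE). Also sought were GCATGCG for part of the NRF1 element, AAGATGG for the factor YY1, TATAAA for the classical TATA element, and TGANTCA for AP-1, the complex of Jun and Fos. The last were TGTTTAC for forkhead (FOX) factors, CACTTGA for the homeobox factor NKX2-1, GGAATG for the TEAD factors of Hippo signalling, AAGATAA for part of the element of EVI1, which is the protein of Prdm3, and CACGTG for the E-box. No motif contains another. A match is a description of letters, not a bound site. Sftpb (chr6:72304360-72304609, plus strand) and Cebpa (chr7:35119043-35119292, plus strand) belong to surfactant-producing cells, and Aldh1a7 (chr19:20727557-20727806, minus strand) to airway secretory cells. These 3 had lower strength in the knockout.
Sftpb: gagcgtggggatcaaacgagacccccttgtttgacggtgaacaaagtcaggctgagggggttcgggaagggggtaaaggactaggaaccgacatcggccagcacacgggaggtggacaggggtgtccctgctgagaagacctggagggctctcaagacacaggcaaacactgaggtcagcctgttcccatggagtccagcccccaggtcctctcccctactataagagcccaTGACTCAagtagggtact
Cebpa: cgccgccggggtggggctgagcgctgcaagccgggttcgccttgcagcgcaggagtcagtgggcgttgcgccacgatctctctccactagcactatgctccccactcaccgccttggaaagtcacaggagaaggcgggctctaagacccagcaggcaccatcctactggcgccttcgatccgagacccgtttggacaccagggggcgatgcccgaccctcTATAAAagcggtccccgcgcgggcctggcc
Aldh1a7: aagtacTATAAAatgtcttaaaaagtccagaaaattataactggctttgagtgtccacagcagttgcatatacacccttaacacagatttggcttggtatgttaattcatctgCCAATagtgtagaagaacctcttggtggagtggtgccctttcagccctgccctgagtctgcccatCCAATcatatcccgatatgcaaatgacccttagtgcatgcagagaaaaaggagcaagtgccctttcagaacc
Ankrd1 (chr19:36119845-36120094, minus strand), Sema3e (chr5:14025026-14025275, plus strand) and Bdkrb2 (chr12:105562922-105563171, plus strand) had higher strength in the knockout. The Ankrd1 window holds 2 GGAATG matches, starting at bases 41 and 128 of the window. The Bdkrb2 window holds no match to any of the 13 motifs.
Ankrd1: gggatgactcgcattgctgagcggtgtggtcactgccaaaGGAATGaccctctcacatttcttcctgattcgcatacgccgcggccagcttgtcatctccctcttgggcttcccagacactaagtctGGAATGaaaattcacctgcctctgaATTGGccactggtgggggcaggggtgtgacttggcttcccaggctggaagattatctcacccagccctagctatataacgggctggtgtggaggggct
Sema3e: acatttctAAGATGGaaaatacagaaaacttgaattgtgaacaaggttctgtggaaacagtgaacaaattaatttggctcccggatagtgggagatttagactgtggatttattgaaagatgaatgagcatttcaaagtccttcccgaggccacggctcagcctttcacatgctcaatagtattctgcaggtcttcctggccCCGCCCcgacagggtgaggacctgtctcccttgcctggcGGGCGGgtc
Bdkrb2: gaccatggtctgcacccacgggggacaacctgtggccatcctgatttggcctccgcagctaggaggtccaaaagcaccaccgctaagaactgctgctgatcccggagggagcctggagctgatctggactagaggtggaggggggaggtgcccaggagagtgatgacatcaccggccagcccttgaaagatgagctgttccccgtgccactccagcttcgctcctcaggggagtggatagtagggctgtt
Msmo1 (chr8:64733579-64733828, minus strand) is shown as 1 of the 5 strongest promoters, and Nkx2-1 (chr12:56536909-56537158, minus strand) as the factor named in the title of the series. The Msmo1 window has 3 CCAAT boxes and 2 GC boxes, with a G+C content of 72.0% and 32 CpG dinucleotides. Its AP-1 match starts at base 124.
Msmo1: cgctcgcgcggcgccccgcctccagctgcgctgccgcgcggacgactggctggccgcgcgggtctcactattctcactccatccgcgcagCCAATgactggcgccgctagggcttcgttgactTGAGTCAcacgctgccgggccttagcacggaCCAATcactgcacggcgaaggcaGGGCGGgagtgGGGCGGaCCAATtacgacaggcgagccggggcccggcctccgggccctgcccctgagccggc
Nkx2-1: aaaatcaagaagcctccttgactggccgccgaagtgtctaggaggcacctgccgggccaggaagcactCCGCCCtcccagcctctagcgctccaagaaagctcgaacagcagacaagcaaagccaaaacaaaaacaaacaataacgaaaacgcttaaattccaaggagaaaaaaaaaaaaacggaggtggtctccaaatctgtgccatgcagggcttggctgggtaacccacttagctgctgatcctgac

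Strength was expressed as a score from 0 to 1, the rank of a region's best peak within its library's list. A score of 0.8 means that the peak was stronger than 80% of the peaks used in that library, and 0 means no peak. Across gene-end regions the median score was 0.835, against 0.716 for regions inside gene bodies and 0.705 for intergenic regions that were also open in all 11 libraries. The rule reached gene ends far more often than other places. Of 14685 gene-end regions with a peak in any library, 71.1% had one in all 11, against 27.1% of gene-body and 25.5% of intergenic regions. The control lists held 79525 to 112297 peaks before they were cut and the knockout lists 72935 to 85704. Read depth is unknown, and the −log10 p at the cut was 6.59 to 35.6 in controls and 2.00 to 14 in knockouts. The median score of the gene-end regions was 0.827 to 0.849 in single control libraries and 0.835 to 0.846 in single knockout libraries, which overlap.

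Most of these regions sat on the start of a gene. Strand was known for 16457 of the 20665 protein-coding genes in the table. By this, 8031 regions lay at a gene start, 399 at the far end of a gene only, and 2009 near a gene of unknown strand. In 7879 regions the gene end nearest to the strongest summit was a start. The summit lay within 100 bp of it in 56.0% and within 300 bp in 78.6%, with a median of 6 bp downstream of the start. The regions touched 11305 of the 20665 genes (54.7%), and 904 genes had at least 2 of them. The starts of genes on both strands lay within reach of 882 regions. The summit was also steady from library to library: in 76.8% of gene-end regions the 11 summits lay within 100 bp of each other.

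**Figure D1:**
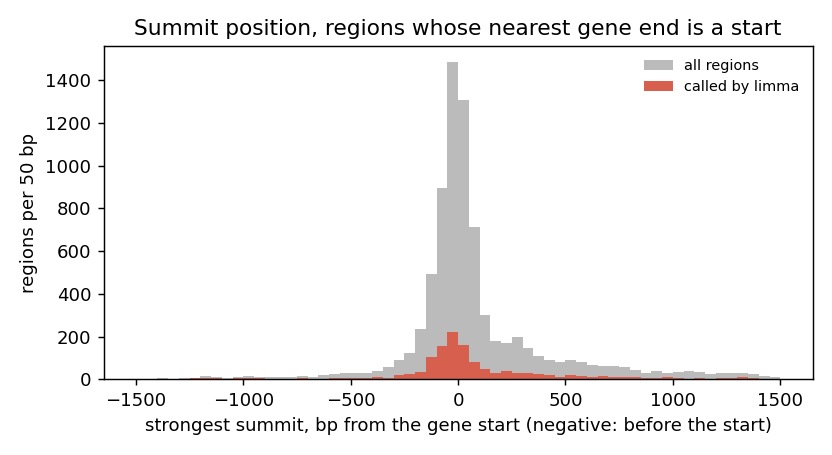
Distance in bp from the start of the nearest gene to the strongest summit (negative: before the start), in bins of 50 bp, for the 7879 regions whose nearest gene end was a start; the coloured part of each bar counts regions called different between genotypes. The counts peak at the start, with 56.0% of summits within 100 bp, and the counts of called regions peak there too. The called part of a bar varied with distance. It was 162 of 1310 regions in the bin from 0 bp and 83 of 713 from 50 bp. It was larger in many bins farther out, such as 102 of 491 from -150 bp and 37 of 170 from 200 bp. Some far bins had a smaller part, such as 0 of 12 from -800 bp. This was not tested.

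In the promoter sequences, open gene ends were rich in CpG. RefSeq windows of 300 bases (250 before to 50 after a start) were available for 20063 genes on chromosomes 1 to 19. A gene-end region overlapped 9358 of them. The median G+C content was 62.7% in these 9358 windows and 50.7% in the other 10705. The median number of CpG dinucleotides was 23 against 5, and the ratio of observed to expected CpG was 0.805 against 0.263. A GC box stood in 71.3% of the overlapped windows, in 25.8% of the others and in 47.0% of all windows. An ETS match stood in 20.4%, 4.40% and 11.9% in the same order. TATAAA was less frequent in overlapped windows, at 5.71% against 18.8% in the others and 12.7% in all. The NKX2-1 letters stood in 1.59%, 4.11% and 2.94%, and the EVI1 letters in 1.29%, 4.39% and 2.95%.

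The strongest gene ends differed from the weakest in 1 motif above all. CCAAT, the NF-Y box, was present in 56.4% of windows at the strongest 20% of regions and in 26.9% at the weakest 20%, with 38.1% over all windows. G+C content differed little between the same classes, at 63.3% and 61.7%. The 5 regions with the highest mean score were at the starts of Tasp1, a threonine protease, Msmo1, an enzyme of cholesterol synthesis, Msantd4, Pitrm1, a mitochondrial presequence protease, and Pja2, a ubiquitin ligase. Their mean scores over 11 libraries were 0.9998 (Tasp1), 0.9997 (Msmo1), 0.9997 (Msantd4), 0.9998 (Pitrm1) and 0.9997 (Pja2). By −log10 p each was thus among the very strongest peaks of every library of either genotype, which the rule favours. With fold ranking their mean scores ran from 0.904 (Pja2) to 0.995 (Tasp1). At middle strength, scores between 0.4 and 0.6, the 5 steadiest regions lay at Id1, an inhibitor of helix-loop-helix factors, Prkrip1, Ttc26, a protein of cilia, Aaas, a nuclear pore protein, and Ahnak, a scaffold protein. Their SDs over 11 libraries were 0.0359 (Id1), 0.0373 (Prkrip1), 0.0274 (Ttc26), 0.0377 (Aaas) and 0.0355 (Ahnak). With fold ranking the mean scores were 0.146 (Id1), 0.456 (Prkrip1), 0.858 (Ttc26), 0.56 (Aaas) and 0.171 (Ahnak). The middle level of Id1, Ttc26 and Ahnak was thus not kept with that ranking.

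Between genotypes 18.0% of gene-end regions were called different in strength. Scores were compared with limma over all 65877 regions found in 3 or more libraries, at a Benjamini-Hochberg adjusted p below 0.05. Of the 10439 gene-end regions, 932 were lower in the knockout (8.93%) and 950 higher (9.10%). A region without a call has not been shown to keep its rank. Over all regions tested, 24.1% were lower and 20.7% higher, 44.8% in all. Over all 28339 regions open in every library the shares were 20.7%, 15.6% and 36.4%. Among regions open in all 11 libraries, 27.4% of gene-body regions were lower and 19.1% higher (46.5% in all), and 27.8% of intergenic regions were lower and 19.9% higher (47.8% in all). All 5 knockouts lay below all 6 controls in 446 gene-end regions (4.27%, against 13.6% of all regions tested) and above them in 407 (3.90%, against 12.6%). Over regions open in every library these shares were 12.3% and 9.58%, over those in gene bodies 16.6% and 12.5%, and over intergenic ones 17.3% and 13.3%. The difference in these shares between locations was not tested. The median size of the difference between group means was 0.0227 at gene ends, 0.0701 in gene bodies and 0.0772 between genes.

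How many fell and how many rose depended on the scaling. The lower share of called gene-end regions was 49.5% with the main scores, 84.4% with the lists as deposited (1636 lower, 302 higher), 38.4% with scores centred per library (764 and 1228) and 23.6% with peaks ranked by fold enrichment (469 and 1521). The balance of direction over all gene ends is therefore given with its scaling only. Most single calls also depended on it. Of the 932 lower regions 310 (33.3%), and of the 950 higher regions 253 (26.6%), kept their call in the same direction under all 5 other scalings. These were the lists as deposited, lists cut to 36467 peaks, fold ranking, centred scores and normal quantiles of the score. Fold ranking kept 37.4% of the lower calls and turned 1 to higher, and the lists as deposited kept 31.6% of the higher calls. The regions kept under all 5 made up 2.97% and 2.42% of the gene-end regions, against 6.50% and 7.16% of all regions tested.

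**Figure D2:**
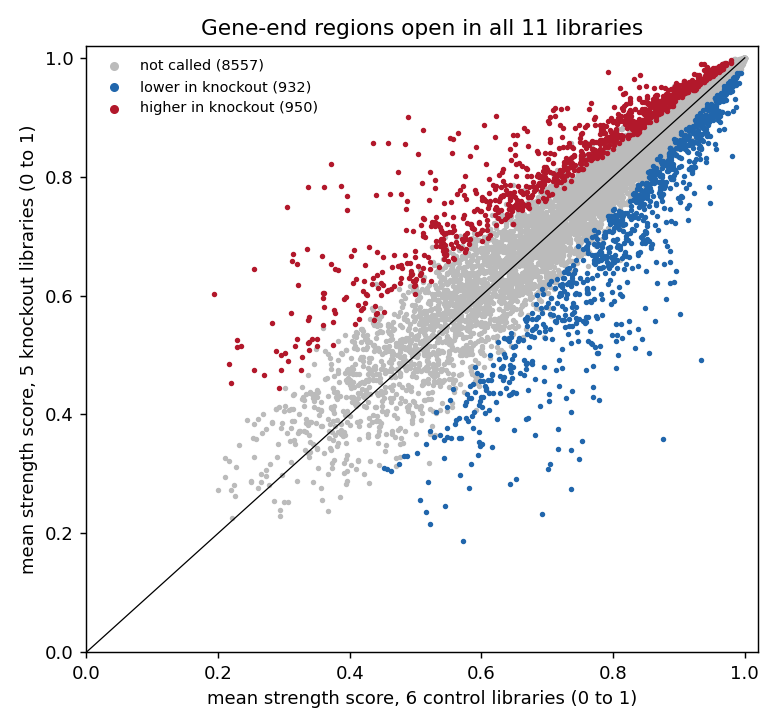
Mean strength score of the 10439 gene-end regions in 6 control libraries (x axis) and 5 knockout libraries (y axis), both from 0 to 1; each point is a region, coloured where limma called it lower (932) or higher (950) in the knockout, and the line marks equal means. Points narrow towards the line at high scores, which cannot exceed 1, and even small differences were called there.

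The strongest 20% of gene ends was called least often. Among them 3.21% of 2088 regions were lower and 3.88% higher, against 9.96% and 10.5% of the weakest 20%. The median size of the difference was smaller at high strength as well, from 0.0609 in the weakest class to 0.00465 in the strongest. The median SD over 11 libraries shrank alike, from 0.0866 to 0.00884. A score cannot exceed 1, so the strongest class has little room for a difference whatever the genotype. Within the same range of mean score gene ends were still called less often than other places. With a mean score of 0.7 to 0.8, 22.9% of 1738 gene-end regions were called, against 54.1% of 1999 gene-body and 54.2% of 1647 intergenic regions. With a mean score of 0.9 to 1.0 the shares were 11.3%, 35.7% and 39.7%. The median standard error in the range 0.7 to 0.8 was 0.0287, 0.0299 and 0.0302, so the fit was about equally precise in the 3 places. Scores were not matched between places within a range, and the difference between places was not tested.

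**Figure D3:**
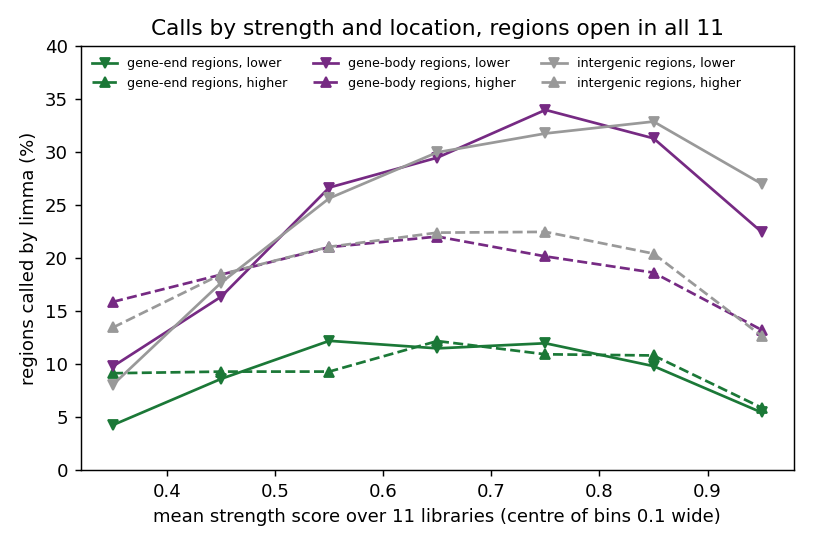
Share of regions open in all 11 libraries that limma called lower (solid) or higher (dashed) in the knockout, in percent, by mean strength score in bins 0.1 wide, for gene-end, gene-body and intergenic regions. Gene-end regions lie below the other places in every bin drawn.

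Regions at the far end of a gene were called more often than those at a start. Of the 399 regions at the far end only, 22.8% were lower and 18.3% higher, against 7.81% and 8.60% of the 8031 at starts. Their median score was also lower, 0.695 against 0.846. Regions near starts on both strands were lower in 4.76% and higher in 6.58% of 882. These shares were not tested against each other.

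Promoters called lower held fewer CpG than the rest. The 637 windows at lower regions had a median of 17 CpG and an observed to expected ratio of 0.660. The 754 windows at higher regions had 22 and 0.787, and the 7967 at regions not called had 23 and 0.815. An ETS match stood in 11.5% of the lower windows, 18.0% of the higher and 21.4% of those not called. For YY1 the shares were 2.98%, 7.16% and 7.59%, and for NRF1 they were 2.04%, 7.83% and 7.52%. The AP-1 letters were more frequent in lower windows, at 7.69% against 4.91% and 3.60%, with 7.06% over all windows. The GGAATG letters of TEAD stood in 12.6%, 13.3% and 10.4%, against 13.4% of all windows. These are shares of windows and were not tested.

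The greatest falls were near Myom2, Dpy19l3, Dnhd1, Celf2, Nt5dc3, Fat1, Ptn, Sidt1, Zfp872 and Nsmaf, from a difference of -0.516 to -0.384. In each, all knockouts lay below all controls. Under all 5 other scalings 8 of the 10 calls were kept. The calls near Fat1 and Nsmaf ended with fold ranking, where the differences were -0.0824 (limma adjusted p = 0.222) and -0.0378 (limma adjusted p = 0.560). That of Nsmaf also ended with lists cut to 36467 peaks, at -0.166 (limma adjusted p = 0.0770).

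The region with the greatest fall, chr8:15133577-15134220, had its strongest summit 556 bp from an end of Myom2, which encodes a protein of the sarcomere of muscle. The Myom2 scores of the 6 controls had a lowest, median and highest value of 0.838, 0.879 and 0.912, against 0.314, 0.378, 0.299, 0.542 and 0.264 in knockouts 1 to 5. Every control was strong and every knockout was weak or middling, so the groups did not overlap. Controls averaged 0.875 ± 0.0335 and knockouts 0.359 ± 0.110 (SD, n = 6 and 5), which differ by -0.516 ± 0.0446 (SE), at a limma adjusted p of 3.97e-07.

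Dpy19l3, which encodes an enzyme that attaches mannose to tryptophan in proteins, had a region near its far end at chr7:35686114-35687594, with the strongest summit 804 bp away. At Dpy19l3, knockouts 1 to 5 scored 0.227, 0.217, 0.40, 0.228 and 0.300, and the 6 controls 0.699 to 0.770 (median 0.733). Controls were tightly grouped well above the knockouts. The group means of 0.736 ± 0.0252 and 0.274 ± 0.0775 (SD, n = 6 controls and 5 knockouts) differed by -0.462, with a standard error of 0.0420 and a limma adjusted p of 5.43e-07. The region at the start of the same gene, at chr7:35753780-35754875, moved the other way, from 0.873 ± 0.0167 to 0.915 ± 0.0198 (SD, n = 6 and 5, limma adjusted p = 0.0102).

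Fat1 encodes a giant cadherin that orients and adheres epithelial cells. Its region, with the summit 25 bp from the annotated start, was chr8:44932761-44933375. Control scores at Fat1 ran from 0.649 to 0.819 with a median of 0.759, and the 5 knockouts scored 0.407, 0.367, 0.381, 0.365 and 0.255. All controls were above all knockouts, and knockout 5 was the lowest. This gave 0.753 ± 0.0644 in controls against 0.355 ± 0.0585 in the knockout (SD, n = 6 and 5) and a difference of -0.398 ± 0.0416 (SE, limma adjusted p = 2.5e-06). The summed width of its peak intervals was also smaller, with a mean of 555 bp in controls and 351 bp in knockouts (log2 difference -0.59, limma adjusted p = 3.94e-04).

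Ptn encodes pleiotrophin, a heparin-binding growth factor, and its region at chr6:36808369-36810273 overlapped the start, with the strongest summit 1323 bp away. The Ptn scores of the 6 controls had a lowest, median and highest value of 0.682, 0.750 and 0.772, against 0.377, 0.404, 0.234, 0.454 and 0.233 in knockouts 1 to 5. The groups were far apart. Its means were 0.737 ± 0.0363 in controls and 0.340 ± 0.101 in the knockout (SD, n = 6 and 5), a difference of -0.397 with a standard error of 0.0462 (limma adjusted p = 7.53e-06). Celf2, an RNA-binding regulator of splicing, had a region near its far end at chr2:6537965-6538898, with the strongest summit 1441 bp away. At Celf2, knockouts 1 to 5 scored 0.436, 0.506, 0.624, 0.583 and 0.310, and the 6 controls 0.907 to 0.973 (median 0.928). The controls were among the strongest peaks of their lists and the knockouts lay in the middle. Controls averaged 0.933 ± 0.0255 and knockouts 0.492 ± 0.124 (SD, n = 6 and 5), which differ by -0.441 ± 0.0449 (SE), at a limma adjusted p of 2.02e-06. The remaining 5 regions, near Dnhd1, Nt5dc3, Sidt1, Zfp872 and Nsmaf, had control means from 0.572 to 0.748 and knockout means from 0.188 to 0.325.

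The greatest rises were near Hs3st5, Osgin2, Lpar6, Bdkrb2, Senp8, Scgb3a2, Ikbkb, 9430069I07Rik, Ankrd1 and Taar7d, from 0.449 down to 0.390. In 9 of the 10 all knockouts lay above all controls and the call was kept under all 5 other scalings. The exception was 9430069I07Rik, a predicted gene at chr15:34347670-34348776. Control scores at 9430069I07Rik ran from 0.0580 to 0.812 with a median of 0.496, and the 5 knockouts scored 0.800, 0.854, 0.825, 0.895 and 0.913. Its controls split into 3 low and 3 high libraries, and the high ones overlapped the knockouts. The group means of 0.458 ± 0.372 and 0.857 ± 0.0471 (SD, n = 6 controls and 5 knockouts) differed by 0.399, with a standard error of 0.138 and a limma adjusted p of 0.0297. That call was lost when any 1 of 7 of the 11 libraries was left out, controls 1, 2 and 4 and knockouts 2 to 5, with limma adjusted p up to 0.0642. It was also lost with fold ranking (0.241, limma adjusted p = 0.127) and with normal quantiles.

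Scgb3a2 encodes a secretoglobin that airway secretory cells release. Its region, with the summit 35 bp from an annotated gene end, was chr18:43763848-43764830. The Scgb3a2 scores of the 6 controls had a lowest, median and highest value of 0.313, 0.499 and 0.592, against 0.864, 0.908, 0.940, 0.907 and 0.886 in knockouts 1 to 5. The region was of middle strength in controls and strong in every knockout. This gave 0.489 ± 0.0971 in controls against 0.901 ± 0.0283 in the knockout (SD, n = 6 and 5) and a difference of 0.412 ± 0.0421 (SE, limma adjusted p = 2.09e-06). With fold ranking the difference was 0.131, still called.

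Bdkrb2, the receptor for bradykinin, had a region at its start at chr12:105562737-105563336, with the summit 54 bp away. At Bdkrb2, knockouts 1 to 5 scored 0.837, 0.900, 0.855, 0.831 and 0.865, and the 6 controls 0.297 to 0.525 (median 0.449). The lowest knockout stood well above the highest control. Its means were 0.435 ± 0.0886 in controls and 0.858 ± 0.0275 in the knockout (SD, n = 6 and 5), a difference of 0.422 with a standard error of 0.0414 (limma adjusted p = 1.39e-06). Another receptor gene, Lpar6, which binds lysophosphatidic acid, behaved alike at chr14:73237716-73238340. Control scores at Lpar6 ran from 0.172 to 0.470 with a median of 0.290, and the 5 knockouts scored 0.750, 0.802, 0.747, 0.760 and 0.683. The groups did not overlap. Controls averaged 0.304 ± 0.118 and knockouts 0.748 ± 0.0425 (SD, n = 6 and 5), which differ by 0.444 ± 0.0561 (SE), at a limma adjusted p of 1.62e-05.

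Hs3st5 encodes a sulfotransferase that modifies heparan sulfate, and its start lay in chr10:36506096-36507696. The Hs3st5 scores of the 6 controls had a lowest, median and highest value of 0.169, 0.361 and 0.668, against 0.786, 0.828, 0.834, 0.856 and 0.801 in knockouts 1 to 5. The controls spread widely, with control 5 the highest, and still lay below the knockouts. The group means of 0.372 ± 0.166 and 0.821 ± 0.0275 (SD, n = 6 controls and 5 knockouts) differed by 0.449, with a standard error of 0.0672 and a limma adjusted p of 7.96e-05. Senp8, a protease that acts on the ubiquitin-like protein NEDD8, had a region near its far end at chr9:59732818-59733661. At Senp8, knockouts 1 to 5 scored 0.758, 0.759, 0.768, 0.815 and 0.814, and the 6 controls 0.303 to 0.451 (median 0.362). Both groups were compact. This gave 0.361 ± 0.0520 in controls against 0.783 ± 0.0293 in the knockout (SD, n = 6 and 5) and a difference of 0.422 ± 0.0372 (SE, limma adjusted p = 3.9e-07).

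**Figure D4:**
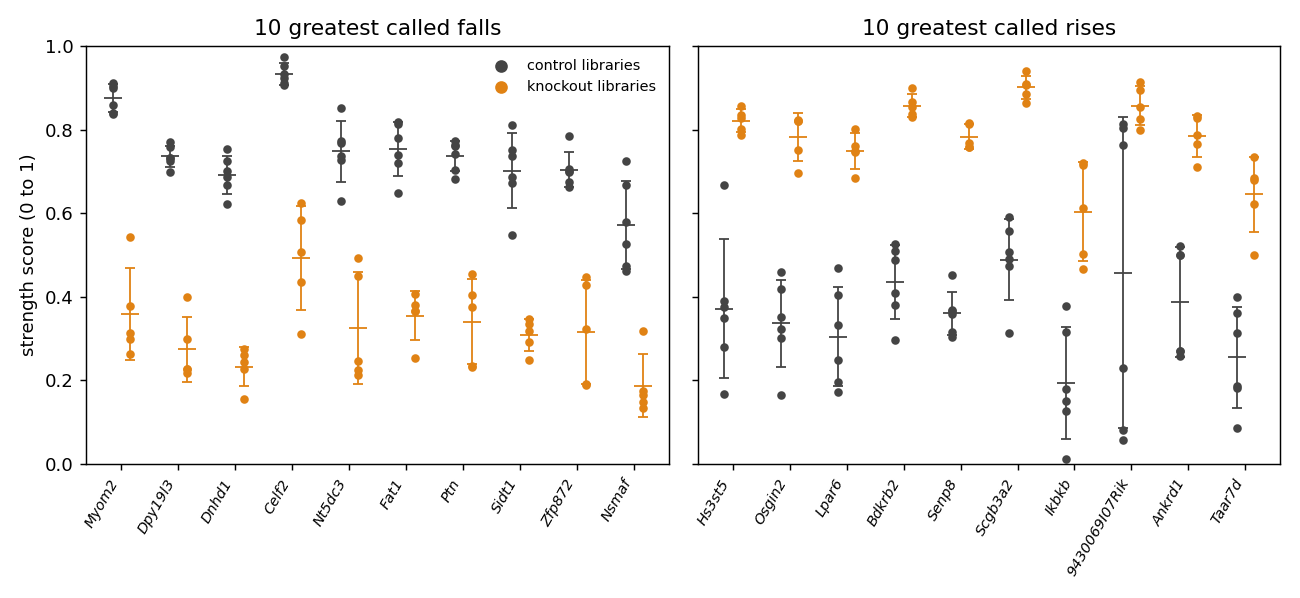
Strength score (0 to 1) in each library at the 10 greatest called falls (left) and 10 greatest called rises (right); points are the 6 control and 5 knockout libraries, horizontal bars the means and error bars the SD. Controls and knockouts do not overlap in any region drawn except 9430069I07Rik, whose controls split into 3 low and 3 high libraries.

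Genes were then grouped into 20 lists by role. The count of called regions in a list is read against all gene-end regions, of which 8.93% were lower and 9.10% higher, 18.0% in all. No list was tested against them. The 20 epithelial adhesion genes of the list all had a gene-end region in every library, as did all 16 proteasome and all 17 stress genes. Epcam scored 0.738 ± 0.0551 in the control and 0.761 ± 0.0345 in the knockout group and Cdh1, the cadherin of epithelial junctions, 0.920 ± 0.0282 in the control and 0.932 ± 0.0145 in the knockout group (SD, n = 6 and 5). Markers of other cells mostly had none: 4 of 16 mesenchymal, 5 of 14 endothelial and 3 of 15 blood genes had such a region. Pdgfra, Col3a1, Pecam1, Cdh5 and Ptprc, which define those cells, were among the genes without 1. Airway secretory and neuroendocrine markers, which belong to epithelial cells, also mostly had none, with 3 of 10 and 3 of 9 genes. These counts therefore do not check which cells were captured. The 4 mesenchymal regions (Vim, Twist1, Col1a2 and Col1a1) had a median difference of -0.0380, and limma called 0 of them (0 also at an unadjusted p below 0.05). The part of other cell types in the results below was not tested.

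Lists of housekeeping machinery, chromatin repressors and stress genes had median scores from 0.794 (ribosomal proteins) to 0.878 (oxidative phosphorylation), around the median of 0.835 over all gene-end regions. Of 20 regions of ribosomal protein genes 0 were lower and 2 higher, Rps27 (shared with Rab13) and Rpl27, which is 10.0% called against 18.0% of all gene-end regions. For 16 proteasome regions the counts were 0 and 1 (Psmb4). For 13 of oxidative phosphorylation they were 1 (Atp5a1, in a region whose summit is nearest to an end of Haus1) and 1 (Uqcrc1). For 16 of cell cycle and replication they were 0 and 1 (Mcm2), and for 19 of stress and immediate early genes 0 and 1 (Ddit3). The shares called were 6.25%, 15.4%, 6.25% and 5.26%, and their difference from 18.0% was not tested. The 15 regions of chromatin repressors and methyltransferases had 0 lower and 0 higher by limma, and 0 at an unadjusted p below 0.05, with Suz12 (0.0369, adjusted p = 0.197) and Cbx5 (0.0229, adjusted p = 0.143) nearest to the threshold. Single libraries or the scaling ended several of these calls. Those of Psmb4, Mcm2 and Ddit3 were lost on leaving out any 1 of 9, 8 and 7 of the 11 libraries, with limma adjusted p up to 0.114, 0.102 and 0.0892. That of Rpl27 was lost without control 3 or knockout 2, with limma adjusted p up to 0.0704. The calls of Psmb4, Rpl27, Uqcrc1, Mcm2 and Ddit3 were not kept with the lists as deposited, and that of Atp5a1 not with fold ranking. Mcm6, with all knockouts above all controls, was not called with the main scores (0.0171, limma adjusted p = 0.0677). It was called higher under every other scaling but the lists as deposited, as with fold ranking (0.0594, limma adjusted p = 0.00128).

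Splicing factors join the coding parts of a transcript. Of 17 regions of splicing factor genes 4 were higher (Prpf8, Srsf2, Srsf3 and U2af2) and 1 lower (Sf3a1), with a median difference of 0.0151. The share called was 29.4%, against 18.0% of all gene-end regions, and this difference was not tested. The median over all gene-end regions was 0.00269, and over all regions tested -0.0117. On the deposited list lengths 1 was higher and 2 lower. Prpf8 encodes the core protein of the spliceosome. Its region at chr11:75509633-75511121 also lies near Rilp, whose start is the gene end nearest to the summit. Control scores at Prpf8 and Rilp ran from 0.407 to 0.557 with a median of 0.494, and the 5 knockouts scored 0.716, 0.742, 0.787, 0.644 and 0.665. All knockouts were above all controls. Its means were 0.485 ± 0.0650 in controls and 0.711 ± 0.0578 in the knockout (SD, n = 6 and 5), a difference of 0.226 with a standard error of 0.0408 (limma adjusted p = 4.18e-04). This call was kept under all 5 other scalings. Another Prpf8 region, at its start at chr11:75486236-75487307, was at 0.921 ± 0.0142 in the control and 0.930 ± 0.0164 in the knockout group (limma adjusted p = 0.471). U2af2 too had another region that was not called, at 0.949 ± 0.0166 in the control and 0.952 ± 0.0127 in the knockout group (limma adjusted p = 0.819). The calls of U2af2 and Sf3a1 were each lost on leaving out any 1 of 8 libraries (limma adjusted p up to 0.105 and 0.103), and that of Srsf2 without knockout 1 (limma adjusted p = 0.0582). Of 14 regions of core transcription and Mediator genes 2 were higher and 0 lower, a share called of 14.3%, below the 18.0% of all gene-end regions. Polr2e, a subunit of RNA polymerase II, rose at chr10:80039279-80040024. The Polr2e scores of the 6 controls had a lowest, median and highest value of 0.246, 0.394 and 0.438, against 0.603, 0.50, 0.693, 0.572 and 0.654 in knockouts 1 to 5. The groups did not overlap. Controls averaged 0.360 ± 0.0905 and knockouts 0.605 ± 0.0746 (SD, n = 6 and 5), which differ by 0.245 ± 0.0542 (SE), at a limma adjusted p of 0.00212. Ccnt1, the cyclin of the elongation factor P-TEFb, rose by less, from 0.809 ± 0.0277 to 0.868 ± 0.0204 (SD, n = 6 and 5, limma adjusted p = 0.00785), and was not called with the lists as deposited.

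Alveolar type 2 cells make surfactant. Their list had 16 gene-end regions at 15 genes, of which 4 were lower and 3 higher, with a median difference of -0.00480. Of all gene-end regions 8.93% were lower and 9.10% higher, and the list (43.8% called) was not tested against them. The direction was not steady: 6 were lower and 0 higher with the lists as deposited, and 1 lower and 7 higher with fold ranking. Sftpb, the surfactant protein needed for breathing at birth, was the 1 that stayed lower under all 5 other scalings. Its region was chr6:72303573-72304903, with the summit 29 bp from the start, inside the promoter window printed above. At Sftpb, knockouts 1 to 5 scored 0.655, 0.480, 0.673, 0.649 and 0.471, and the 6 controls 0.751 to 0.841 (median 0.801). Every control was above every knockout, and knockouts 2 and 5 were the lowest. The group means of 0.797 ± 0.0398 and 0.586 ± 0.101 (SD, n = 6 controls and 5 knockouts) differed by -0.212, with a standard error of 0.0408 and a limma adjusted p of 7.19e-04. The summed width of its peak intervals was smaller too, at 1254 bp in controls and 962 bp in knockouts (log2 difference -0.32, limma adjusted p = 0.0495).

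Sftpd, a collectin of the surfactant, scored lower at chr14:41185045-41185852. Control scores at Sftpd ran from 0.613 to 0.729 with a median of 0.632, and the 5 knockouts scored 0.438, 0.534, 0.442, 0.524 and 0.465. The groups did not overlap. This gave 0.648 ± 0.0416 in controls against 0.480 ± 0.0457 in the knockout (SD, n = 6 and 5) and a difference of -0.167 ± 0.0360 (SE, limma adjusted p = 0.00163). With fold ranking its difference was -0.0939 (limma adjusted p = 0.0650). Sftpa1, which encodes another collectin, was at 0.684 ± 0.0299 in the control and 0.678 ± 0.0496 in the knockout group (SD, n = 6 and 5, limma adjusted p = 0.882). Cebpa, a basic leucine zipper factor of type 2 cell maturation, was strong in both groups at chr7:35118036-35119916. The Cebpa scores of the 6 controls had a lowest, median and highest value of 0.916, 0.928 and 0.957, against 0.849, 0.835, 0.911, 0.887 and 0.869 in knockouts 1 to 5. Each knockout was below each control by a small margin. Its means were 0.933 ± 0.0182 in controls and 0.870 ± 0.0300 in the knockout (SD, n = 6 and 5), a difference of -0.0629 with a standard error of 0.0138 (limma adjusted p = 0.00203). With fold ranking the Cebpa difference was -0.0980 (limma adjusted p = 0.131).

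The 3 higher type 2 regions belonged to Fasn and Lpcat1, enzymes of fatty acid and phosphatidylcholine synthesis, and to Cxcl15, a chemokine of lung epithelium. Fasn scored 0.729 ± 0.0756 in the control and 0.831 ± 0.0419 in the knockout group (SD, n = 6 and 5, limma adjusted p = 0.0245). All 3 calls ended with the lists as deposited. Those of Lpcat1, Cxcl15 and Fasn were also lost on leaving out any 1 of 8, 7 and 3 libraries, with limma adjusted p up to 0.112, 0.113 and 0.0690. Chi3l1 was lower at the far end of its gene, and that call was lost on leaving out any 1 of 7 libraries (limma adjusted p up to 0.0889). Abca3, the lipid transporter of lamellar bodies, was at 0.767 ± 0.0419 in the control and 0.767 ± 0.0629 in the knockout group, and Etv5 at 0.963 ± 0.0150 in the control and 0.971 ± 0.00680 in the knockout group (SD, n = 6 and 5). Neither was called. Sftpc, Lamp3 and Napsa had no gene-end region in all 11 libraries.

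Alveolar type 1 cells form the thin gas exchange surface. Of their 17 gene-end regions 4 were higher (Scnn1g, Sema3e, Gprc5a and Lmo7) and 2 lower (Aqp5 and 1 shared by Col4a3 and Col4a4), with a median difference of -0.00498. The share called was 35.3%, against 18.0% of all gene-end regions, with no test of this difference. The counts were 3 higher and 4 lower with the lists as deposited and 3 higher and 2 lower of 16 with fold ranking. Sema3e, a secreted guidance molecule, rose at its start at chr5:14025126-14026020. At Sema3e, knockouts 1 to 5 scored 0.745, 0.812, 0.791, 0.697 and 0.761, and the 6 controls 0.449 to 0.634 (median 0.505). The groups did not overlap. Controls averaged 0.521 ± 0.0664 and knockouts 0.761 ± 0.0442 (SD, n = 6 and 5), which differ by 0.240 ± 0.0371 (SE), at a limma adjusted p of 1.07e-04. Scnn1g, a subunit of the epithelial sodium channel that clears lung fluid, rose near its far end at chr7:121767727-121768408. Control scores at Scnn1g ran from 0.412 to 0.677 with a median of 0.570, and the 5 knockouts scored 0.834, 0.895, 0.880, 0.884 and 0.872. The knockouts were all close to each other and above the controls. The group means of 0.564 ± 0.0889 and 0.873 ± 0.0234 (SD, n = 6 controls and 5 knockouts) differed by 0.309, with a standard error of 0.0383 and a limma adjusted p of 1.38e-05. The start of Scnn1g, at chr7:121734021-121735031, was at 0.897 ± 0.0278 in the control and 0.867 ± 0.0306 in the knockout group (SD, n = 6 and 5, limma adjusted p = 0.151). Sema3e, Lmo7 and this Scnn1g region kept their call under all 5 other scalings. The Gprc5a call ended with the lists as deposited, that of Col4a3 and Col4a4 with fold ranking, and that of Aqp5 with centred scores and without any 1 of 4 libraries (limma adjusted p up to 0.0750). Ager was at 0.790 ± 0.0228 in the control and 0.829 ± 0.0141 in the knockout group (limma adjusted p = 0.0556) and Hopx at 0.481 ± 0.0561 in the control and 0.352 ± 0.108 in the knockout group (limma adjusted p = 0.0737).

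Epithelial adhesion genes had 22 regions, 4 higher (Jup, Crb3, Cldn4 and St14) and 0 lower, with a median difference of 0.00286. The share called, 18.2%, was near the 18.0% of all gene-end regions. Under deposited list lengths 1 was higher and 1 lower. Jup, the plakoglobin of junctions, kept its call under all scalings at chr11:100397336-100398343. The Jup scores of the 6 controls had a lowest, median and highest value of 0.848, 0.878 and 0.921, against 0.946, 0.944, 0.927, 0.959 and 0.956 in knockouts 1 to 5. All knockouts were above all controls. This gave 0.883 ± 0.0282 in controls against 0.947 ± 0.0126 in the knockout (SD, n = 6 and 5) and a difference of 0.0631 ± 0.0131 (SE, limma adjusted p = 0.00128). Crb3, a polarity protein, went from 0.737 ± 0.0387 to 0.817 ± 0.0213 (SD, n = 6 and 5, limma adjusted p = 0.00787), and was not called with the lists as deposited (0.0396, limma adjusted p = 0.118). The calls of Cldn4 and St14 also ended with the lists as deposited and on leaving out any 1 of 3 and 9 libraries, with limma adjusted p up to 0.0626 and 0.0919.

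Transcription factors of the lung epithelium had 19 regions, 4 lower (Cebpa, Grhl2, Foxp2 and Foxa2) and 2 higher (Sox9 and Elf3). The share called was 31.6%, against 18.0% of all gene-end regions (8.93% lower and 9.10% higher), and this difference was not tested. With the lists as deposited the counts were 6 and 0, and with fold ranking 1 lower and 4 higher of 15. None of the 6 calls was kept under all 5 other scalings. Grhl2, a grainyhead factor of epithelial junction genes, was lower at chr15:37232136-37233493. At Grhl2, knockouts 1 to 5 scored 0.769, 0.788, 0.791, 0.720 and 0.774, and the 6 controls 0.803 to 0.866 (median 0.842). The groups did not overlap. Its means were 0.839 ± 0.0229 in controls and 0.768 ± 0.0289 in the knockout (SD, n = 6 and 5), a difference of -0.0702 with a standard error of 0.0176 (limma adjusted p = 0.00483). With fold ranking the difference was -0.0295 (limma adjusted p = 0.595). Sox9, a factor of the growing tips of the lung epithelium, was among the weaker regions and scored 0.255 ± 0.0932 in the control and 0.474 ± 0.0785 in the knockout group (SD, n = 6 and 5, limma adjusted p = 0.00740). That call ended with the lists as deposited. The calls of Foxp2, Foxa2 and Elf3 were lost on leaving out any 1 of 7, 7 and 3 libraries, with limma adjusted p up to 0.102, 0.0945 and 0.0638. Klf5 was at 0.998 ± 0.000687 in the control and 0.996 ± 0.00197 in the knockout group, Foxa1 at 0.862 ± 0.0389 in the control and 0.862 ± 0.0404 in the knockout group and Gata6 at 0.865 ± 0.0214 in the control and 0.837 ± 0.0564 in the knockout group (SD, n = 6 and 5). None of these was called.

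Nkx2-1 itself had 1 region open in all libraries, at its start at chr12:56536449-56537691. Control scores at Nkx2-1 ran from 0.192 to 0.405 with a median of 0.332, and the 5 knockouts scored 0.306, 0.307, 0.306, 0.279 and 0.244. The ranges overlapped. Controls averaged 0.321 ± 0.0727 and knockouts 0.289 ± 0.0274 (SD, n = 6 and 5), which differ by -0.0319 ± 0.0505 (SE), at a limma adjusted p of 0.635. The region was weak for a gene end, and the knockout values were the closer together. With fold ranking the difference was 0.0230 (limma adjusted p = 0.666). The summed width of its peak intervals was smaller in the knockout, with a mean of 963 bp in controls and 480 bp in knockouts (log2 difference -0.93, limma adjusted p = 0.0364). The width call was lost on leaving out controls 3, 4 or 6 or knockouts 1, 2, 3 or 5, with limma adjusted p up to 0.0771.

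The 2 deleted genes had no gene-end region in every library. At the start of Prdm16 a region at chr4:154635678-154637434 had a peak in 8 libraries, absent in controls 3 and 5 and knockout 4. The score was 0.222 ± 0.181 in the control and 0.277 ± 0.185 in the knockout group (SD, n = 6 and 5, limma adjusted p = 0.679). At the start of Mecom a region at chr3:30508280-30508926 had a peak in 5 libraries, controls 1, 2 and 4 and knockouts 1 and 3 (limma adjusted p = 0.583). The labels do not state which exons are deleted, and peaks at a start do not show their loss, so the values do not check the knockout. The other PRDM genes had 9 regions at 8 genes, and limma called 0 of them, with 1 at an unadjusted p below 0.05. Prdm15 was nearest to the threshold (-0.0389, limma adjusted p = 0.0890), followed by Prdm1 (0.0214, limma adjusted p = 0.470). With the lists as deposited Prdm15 was called lower, and with fold ranking its difference was 0.0653 (limma adjusted p = 0.181).

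Hippo signalling restrains the coactivators YAP and TAZ, which act through TEAD factors. Its list had 20 regions, 2 higher (Ankrd1 and Stk3) and 1 lower (Tead4). The share called was 15.0%, below the 18.0% of all gene-end regions. Under deposited list lengths 1 was higher and 2 lower. Ankrd1, a widely used readout of YAP activity, had the greatest change at chr19:36119696-36120450. The Ankrd1 scores of the 6 controls had a lowest, median and highest value of 0.260, 0.386 and 0.521, against 0.833, 0.765, 0.786, 0.828 and 0.709 in knockouts 1 to 5. The controls fell into 3 values near 0.5 and 3 near 0.27, and all lay below the knockouts. The group means of 0.387 ± 0.132 and 0.784 ± 0.0508 (SD, n = 6 controls and 5 knockouts) differed by 0.397, with a standard error of 0.0583 and a limma adjusted p of 6.58e-05. The summit lay at base 27 of the printed window, with the GGAATG matches downstream of it. Ccn1 and Ccn2, also targets on the list, were not called. Ccn1 was at 0.786 ± 0.0325 in the control and 0.812 ± 0.0248 in the knockout group, and Ccn2 at 0.913 ± 0.0214 and 0.914 ± 0.0248. Neither region of Amotl2 was called, with differences of -0.0441 (limma adjusted p = 0.517) and -0.00799 (limma adjusted p = 0.807). Tead4 itself, at chr6:128299561-128301109, was lower by a small amount at high strength, from 0.980 ± 0.00681 to 0.955 ± 0.00922 (SD, n = 6 and 5, limma adjusted p = 0.00700). Fitted without the trend and robust settings of limma, that region was not called (limma adjusted p = 0.143). Another Tead4 region, at chr6:128224777-128226295, was at 0.470 ± 0.0644 in the control and 0.515 ± 0.105 in the knockout group (limma adjusted p = 0.527). Yap1 was at 0.837 ± 0.0137 in the control and 0.827 ± 0.0262 in the knockout group and Wwtr1, which encodes TAZ, at 0.959 ± 0.0151 in the control and 0.949 ± 0.0127 in the knockout group. Neither was called. The Stk3 call was lost on leaving out any of the 11 libraries (limma adjusted p up to 0.0779).

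Among airway genes, secretory markers moved both ways. Aldh1a7, an aldehyde dehydrogenase, was lower at chr19:20727284-20727834, opposite to Scgb3a2. At Aldh1a7, knockouts 1 to 5 scored 0.788, 0.714, 0.735, 0.734 and 0.768, and the 6 controls 0.883 to 0.932 (median 0.915). All knockouts were clearly below all controls. This gave 0.911 ± 0.0193 in controls against 0.748 ± 0.0297 in the knockout (SD, n = 6 and 5) and a difference of -0.164 ± 0.0159 (SE, limma adjusted p = 1.24e-06). With fold ranking the difference was -0.0927 (limma adjusted p = 0.0752). The 2 regions of Gsto1 were not called. Of 10 multiciliated cell regions 1 was lower (10.0%), near the far end of Mcidas, a regulator of centriole growth (start not called, limma adjusted p = 0.237), and its call was lost on leaving out any 1 of 8 libraries (limma adjusted p up to 0.0959). Ccdc39 was not called with the main scores (-0.053, limma adjusted p = 0.0751). It was called lower with the lists as deposited (-0.0693, limma adjusted p = 0.00827) and with fold ranking (-0.0485, limma adjusted p = 0.0139). Foxj1, the regulator of motile cilia, was at 0.720 ± 0.0820 in the control and 0.754 ± 0.0543 in the knockout group (SD, n = 6 and 5) and not called. Of 3 neuroendocrine regions Scg2 was higher, and its call was lost on leaving out any 1 of 6 libraries (limma adjusted p up to 0.0976). Scgb1a1 and Muc5b had no gene-end region in all 11 libraries.

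Of 6 regions of endothelial genes 1 was lower and 1 higher, both at Esam, an endothelial junction molecule. The higher, at chr9:37526368-37527340, scored 0.931 ± 0.0219 in the control and 0.971 ± 0.00592 in the knockout group (SD, n = 6 and 5, limma adjusted p = 0.00463). The lower, at chr9:37539123-37539855, has its summit 33 bp from an end of Vsig2 and went from 0.522 ± 0.0774 to 0.216 ± 0.119 (SD, n = 6 and 5, limma adjusted p = 0.00113). That call ended with lists cut to 36467 peaks. Of 3 blood cell regions Fcer1g, an immunoglobulin receptor chain, was lower (-0.135, limma adjusted p = 0.0238), and its call was lost without control 3, 4 or 5 or knockout 1 (limma adjusted p up to 0.0588). It also ended with fold ranking (-0.0595, limma adjusted p = 0.207).

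Of the called regions of the lists, 2 of 16 lower (Sftpb and Tead4) and 10 of 30 higher kept their call under all 5 other scalings. The Tead4 call was still lost without the trend and robust settings of limma. The lists were chosen with earlier results of these data known, so their counts are no independent evidence.

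**Figure D5:**
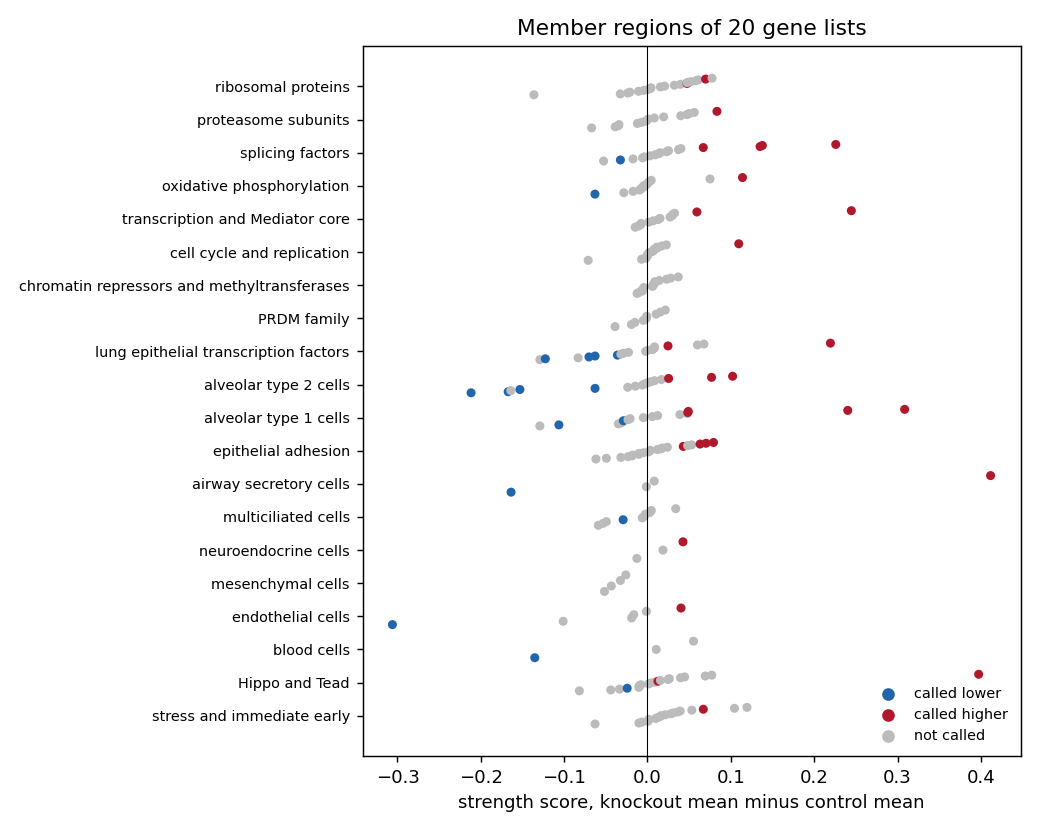
Difference in mean strength score, knockout minus control, for each gene-end region (point) of the 20 gene lists (rows), coloured where limma called the region; within a row points are shifted vertically in order of value. Most points lie within 0.1 of 0, and the greatest differences are Scgb3a2 (0.412) and Ankrd1 (0.397) on the right and the lower Esam region (-0.306) on the left.

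Some genes moved in opposite directions at 2 of their ends or at neighbouring peaks. Of the 904 genes with at least 2 gene-end regions this was so for 22, while 15 had at least 2 lower and 6 at least 2 higher regions. Of all gene-end regions 8.93% were lower and 9.10% higher. These counts of genes were not tested against those shares. The examples here were chosen after their values were seen. Ndrg2, a gene of cell differentiation, had a lower region at chr14:51914924-51915420, from 0.778 ± 0.0527 to 0.425 ± 0.0553, and a higher region at chr14:51912684-51914377, from 0.644 ± 0.0618 to 0.772 ± 0.0354 (SD, n = 6 and 5, limma adjusted p = 2.18e-06 and 0.00452). Both lie at the start. Setd1a, a histone H3 lysine 4 methyltransferase, was higher at its start, from 0.512 ± 0.0687 to 0.729 ± 0.0165, and lower at its end, from 0.817 ± 0.0439 to 0.688 ± 0.0350 (SD, n = 6 and 5, limma adjusted p = 2.15e-04 and 7.86e-04). Lipg, an endothelial lipase, was lower at chr18:74940278-74941180 and higher at chr18:74960615-74961561, by -0.113 and 0.264 (limma adjusted p = 2.42e-05 and 6.41e-04).

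Width was not used by the rule and was compared as well. Width was the summed length of all distinct peak intervals of a library inside the merged region. A missing interval therefore also counts as narrowing, and a single shrinking peak is not told apart from it. Widths were taken as log2 bp minus the library's median and fitted with limma over the 28339 regions open in all libraries. Of the gene-end regions 105 were narrower (1.01%) and 72 wider (0.690%) in the knockout, against 1.73% and 2.00% of all regions fitted. Before centring, the median summed width per gene-end region was 881 to 998 bp in control and 866 to 916 bp in knockout libraries. Without centring 196 were narrower and 14 wider. The narrower count fell to 65 and 69 without control 4 or 6. The wider count was 33 to 44 without controls 4, 5 or 6 or any knockout.

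The greatest narrowing was near Tspo, a cholesterol-binding protein of the mitochondrial membrane, followed by Slc2a4, the insulin-responsive glucose transporter, Kcns3, Grin3a and Nkx2-1. At Slc2a4 (chr11:69947533-69949217) the summed width averaged 1360 bp in controls and 572 bp in knockouts (log2 difference -1.27, limma adjusted p = 0.0184). Its strength score was not called (0.708 ± 0.0670 and 0.751 ± 0.0616, SD, n = 6 and 5). At Grin3a, a glutamate receptor subunit, both fell: the width from 1072 to 548 bp (limma adjusted p = 0.0113) and the score by 0.276 (limma adjusted p = 8.28e-04). The Grin3a strength call ended with fold ranking (-0.0796, limma adjusted p = 0.338). The width calls of Tspo and Kcns3 were lost on leaving out any 1 of 6 and 9 libraries (limma adjusted p up to 0.0647 and 0.0802). The greatest widening was near Ly6g6c, Ikbkb, Gp5, Tmem258 (shared with Fen1) and Fam124a. Ikbkb, the kinase that activates NF-κB, widened from 611 to 919 bp (log2 difference 0.66, limma adjusted p = 2.40e-04) and rose in strength, at chr8:22659994-22660954. Control scores at Ikbkb ran from 0.0121 to 0.379 with a median of 0.165, and the 5 knockouts scored 0.613, 0.502, 0.716, 0.721 and 0.465. The weakest control was almost at the bottom of its list. Its means were 0.194 ± 0.133 in controls and 0.603 ± 0.118 in the knockout (SD, n = 6 and 5), a difference of 0.409 with a standard error of 0.0736 (limma adjusted p = 4.04e-04). The Gp5 width call was lost on leaving out any 1 of 9 libraries (limma adjusted p up to 0.106). With the replicate number as a block in the fit, the width calls of Slc2a4, Grin3a, Kcns3, Ly6g6c, Tmem258 and Gp5 were lost. Their limma adjusted p then ran from 0.0758 (Tmem258) to 0.157 (Gp5). Without centring the width calls of Fam124a and Gp5 were lost (limma adjusted p = 0.0511 and 0.0936).

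The rule has a threshold in presence. Just inside it were the regions of Gtf2ird1, Eomes and Ikbkb, whose weakest library scored 2.70e-05 (control 2), 0.00282 (control 4) and 0.0121 (control 2). Just outside it, with a peak in 10 of 11 libraries, were Dhx32, Zc3h7b and Ryr1, with mean scores of 0.694, 0.679 and 0.678. All 3 lacked a peak only in knockout 5, which had the shortest list. In all 688 gene-end regions had a peak in 10 of 11 libraries, and 205 of them lacked it in knockout 5, 119 in control 5 and 101 in control 3. Of the 14685 gene-end regions with a peak in any library, 102 had a peak in all controls and no knockout, and 82 the reverse. Such regions in other places are not counted here, so no comparison with them is drawn.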

How the data were processed

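Each of the 11 libraries was deposited as 1 peak list. The authors name MACS2, deepTools, DiffBind 3 and the build mm10, per the submitters' processing notes, which give no roles; the aligner and the options of peak calling were not given in the sources used here, and the deposited lists give each peak's fold enrichment, a ratio, and its −log10 p. No read counts were used, so depth is unknown and only ranks were compared.

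Lists were cut to 72935 peaks by −log10 p, overlapping intervals on chromosomes 1 to 19 were merged, and gene ends came from RefSeq GRCm38.p6. A region's score is 1 minus the relative rank of its best peak. Scores of all 65877 regions found in 3 or more libraries were fitted with limma 3.58.1 (trend and robust) in R 4.3.3, knockout against control, with Benjamini-Hochberg adjustment over all of them and a threshold of 0.05. Log2 widths, summed over the peak intervals of a region and centred per library, were fitted over 28339 regions. The fits were checked on simulated data. The rest used Python 3.11.15 with pandas 2.3.3, numpy 2.4.6, matplotlib 3.10.9 and scipy 1.17.1.

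The regions, the 20 gene lists (334 genes, of which 326 were found under their symbol and 2 under a former symbol) and the motifs were chosen with earlier results of these data known. Genes were named by rule: Prdm16, Mecom and Nkx2-1; the 10 greatest called falls and rises; the 5 strongest and, at a mean score of 0.4 to 0.6, the 5 steadiest regions; the 5 greatest called narrowings and widenings; per list the 2 genes with the smallest p; and 3 regions on each side of the presence threshold. Of the list genes picked by p, Junb, Psmd11, Spi1 and Cldn5 were not called with the main scores and are not described above. Psmd11 was called higher with fold ranking, Spi1 higher with normal quantiles and Cldn5 lower with the lists as deposited. Junb was called higher when only regions open in every library were tested. Other list genes named were chosen after their values were seen. Alternatives changed the list length, ranking value, scaling, regions tested, fit, merging, distance to a gene end and libraries.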

Additional observations from a re-analysis of the deposited data

Results flagged for a closer look

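In 158 groups of 5 or 6 libraries, 11 single scores lay apart from the rest of their group by Dixon's criterion. About 8 would be flagged if the scores were independent and normal. These scores are bounded ranks of regions partly picked for extreme values, so 8 is only a rough guide. Of the 11 scores control 2 held 3, knockouts 1 and 5 held 2 each, and controls 1, 4 and 6 and knockout 4 held 1 each.

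The largest gap was at Gtf2ird1, where control 2 scored 2.70e-05 and the other controls 0.320 to 0.461. At Zfp872 control 2 scored 0.784 against 0.662 to 0.707 in the others, and at Psmb4 0.783 against 0.606 to 0.657. At Fat1 knockout 5 scored 0.255 against 0.365 to 0.407 in the other knockouts, and at Nsmaf 0.318 against 0.135 to 0.174. Control 4 scored 0.729 at Sftpd, where the others scored 0.613 to 0.652. Control 1 scored 0.816 at Scg2, where the others scored 0.890 to 0.917. Knockout 4 scored 0.749 at Prdm15, where the others scored 0.789 to 0.804.

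The remaining 3 were at regions near the top of every list, with gaps in the fourth decimal. They were Tasp1 in control 6 (0.9998) and knockout 1 (0.9997) and Msmo1 in knockout 1 (0.9997).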

How the results depend on the processing

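With the lists as deposited 1636 gene-end regions were lower and 302 higher, and with fold ranking 469 and 1521. The other alternatives kept both counts within 1.5 times of 932 and 950. Leaving out 1 library gave 824 to 917 lower and 757 to 1096 higher. Without centring 196 regions were narrower and 14 wider, and leaving out 1 library gave 65 to 101 and 33 to 59. Changing the fit, the regions tested or the libraries left out kept 70.5% to 91.4% of the 1882 strength calls and turned 0 to the opposite direction. Among the scalings, fold ranking kept 37.4% of the lower calls, with 1 turned to higher, and the lists as deposited 31.6% of the higher calls. The number of regions ran from 8536 with lists cut to 36467 peaks to 12019 within 3 kb of a gene end.

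Controls and knockouts 1 to 5 share only a number. The 5 same-numbered pairs had correlations of -0.0171 to 0.0579 between their deviations, and 0 of 5 knockouts correlated best with its own number. With the replicate number as a block 755 regions were lower and 818 higher, and 21 narrower and 3 wider.

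These named regions changed sign, and all but Scg2 had no strength call. With the lists as deposited Uchl1 was at -0.0345, Eomes at -0.0252 and Kcns3 at -0.00813. With lists cut to 36467 peaks Twist1 was at 0.0419. With fold ranking Scg2 was at -0.000302, Vim at 0.0756, Nkx2-1 at 0.0230, Gp5 at 0.0264 and Prdm15 at 0.0653. Leaving out 1 library gave Kcns3 values from -0.00498 to 0.0643 and Uchl1 values from -0.0137 to 0.0476. The cause was not tested. Depth is unknown, and a weak region can lack a peak in a shallow library.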

Other observations

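The share of gene-end regions called differed between chromosomes. The share lower in the knockout ran from 5.40% of 352 regions on chromosome 16 to 13.5% of 652 on chromosome 1. The share higher ran from 5.10% of 353 on chromosome 19 to 12.7% of 559 on chromosome 3. These shares were not tested.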
